A study of Mus musculus with 5 samples.

Results

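The collagen genes of aged mouse tibialis anterior muscle were described across libraries and cell lineages. Members were the gene symbols made of Col, a number, a and a number that had at least 50 unique molecular identifiers (UMIs, 1 per captured transcript) over the 5 deposited matrices. Of 55357 genes in the matrices, 44 symbols had that form and 42 passed. The members fell into 11 fibrillar, 8 basement membrane and 9 FACIT collagens and 14 others. Col9a1 (60 UMIs) and Col25a1 (127) lay just inside the limit. Col6a4 (25) and Col10a1 (6) lay outside it.

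The muscle came from female C57BL/6 mice aged 26 months, and all 5 mice shared strain, sex, age and muscle. The 2 frail mice had a frailty index of at least 0.18, and the 3 controls were under it. No genotype or treatment is named. Each mouse gave 1 library made with the 10x Chromium 3′ chemistry, so the library is the replicate. Frailty p-values set the difference between groups against the spread between libraries. Those for lineage pairs set the difference within libraries against its spread over the 5 mice. The edgeR test estimates this spread partly from all genes together, and in some fits, named below, almost wholly so. The sources describe both a digested suspension of whole cells and a preparation of sorted nuclei. They do not settle which was used, and barcodes are called cells here. Values are listed as frail 1 and 2, then control 1 to 3.

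Collagens are trimers of alpha chains wound into a triple helix. Fibrillar collagens (types I, II, III, V, XI, XXIV and XXVII) form the fibrils that carry tension in tendon and in the sheaths around muscle fibres. Type IV collagen forms the network of basement membranes, which surround muscle fibres, vessels and Schwann cells, and types XV and XVIII border them. FACIT collagens sit on fibril surfaces, and type VI forms beaded microfilaments between fibrils and basement membranes. In skeletal muscle, fibroblast-like cells that carry the receptor Pdgfra are known as a main source of matrix.

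After filtering, 8925 and 10025 frail and 8311, 9431 and 11445 control cells remained, with medians of 5183 to 6844 UMIs. Library pairs shared at most 0.397% of the smaller library's barcodes. The libraries differed in composition. Summed myofibre markers stood at 86.4 and 604 CPM (counts per 1000000 UMIs) in the frail libraries and at 5186, 10682 and 2621 in the controls. Summed keratin markers reached 1373 CPM in control 3 and at most 16.7 elsewhere. Summed Schwann cell markers stood at 462 and 396 CPM in the frail libraries and at 167, 286 and 205 in the controls. The denominator of each CPM is the UMI total of the cells that were summed. Each UMI tags 1 captured transcript, and no length correction was applied. Whether the counts still depend on gene length was not tested.

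Lineages were gated by single genes that are not collagens: Pdgfra, Tnmd (tenocytes), Rgs5 (pericytes), Myh11 (smooth muscle), Cdh5 (endothelium), Sox10 (Schwann cells) and Pax7 (satellite cells). Inside the Pdgfra lineage, Pi16, Smoc2 and Gdf10 marked subsets. Cells gated by Ptprc (immune cells), which should lack collagen transcripts, gave the background level. The markers of the Pdgfra, Tnmd, Myh11, Cdh5, Sox10 and Pax7 lists summed highest in their own gate. The Rgs5 gate also held endothelial transcripts (2748 to 4557 CPM over 6 markers, against 5885 to 8917 in the Cdh5 gate). A stricter Rgs5 gate of 266 to 294 cells per library, chosen after these values were seen, brought them to 245 to 352 CPM. With it, all 42 members kept their leading lineage, and 24 remained above every library of the next lineage. This check is narrow, because only the Rgs5 values differ and Rgs5 cells led 3 members with either gate. Of these, Col17a1 had 76.1 CPM in control 3 and 0 in the other libraries of the stricter gate. The Gdf10 subset was led by Inmt (mean 1310 CPM, against 488 in the Smoc2 subset), while its other listed markers Crispld2, Ccl11 and Hsd11b1 were lower than in the Smoc2 subset. It is therefore called by its gate gene only. The 5 Pi16 subset markers summed to 3604 to 5035 CPM in Pi16 cells and at most 971 in Smoc2 cells. The Gdf10 subset held 35 to 73 cells per library, and the Sox10 and Pax7 gates 35 to 158 and 46 to 214.

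Collagen transcripts made up 0.631% and 0.568% of all UMIs in the frail libraries and 0.502%, 0.393% and 0.885% in the controls. Control 3 was highest and control 2 lowest, so the frail libraries lay between them. The Pdgfra lineage supplied 55.3% to 65.3% of these UMIs per library. Its part was 64.3% to 73.4% for fibrillar collagens and 40.3% to 60.5% for basement membrane collagens. Of the basement membrane UMIs, 9.74% to 23.2% came from the Cdh5 lineage and 9.24% to 18.02% from the Rgs5 lineage.

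**Figure D1:**
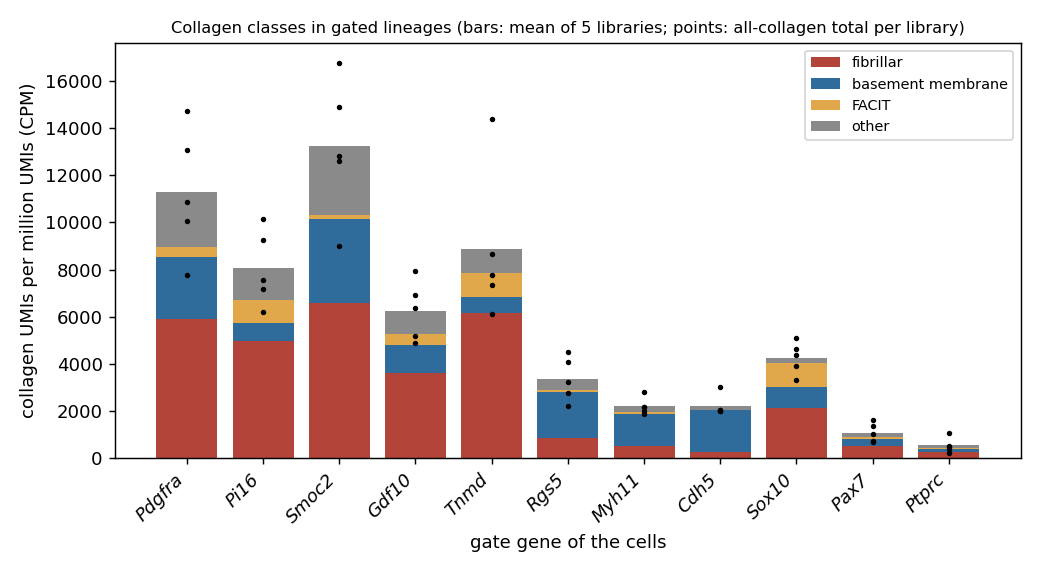
Collagen level in CPM (vertical axis) in cells gated by each gene (horizontal axis), stacked by class as the mean of 5 libraries, with points for the all-collagen total of each library. The Smoc2 subset had the highest mean (13225 CPM) and the Ptprc reference the lowest (539 CPM).

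Total collagen was highest in the Smoc2 subset (13225 ± 2898 CPM, SD, n = 5 libraries), ahead of the whole Pdgfra lineage (11300 ± 2698) and of tenocytes (8866 ± 3223). Schwann cells stood at 4259 ± 676, Rgs5 cells at 3351 ± 935, endothelium at 2218 ± 441, smooth muscle at 2207 ± 366 and satellite cells at 1080 ± 404. The immune reference held 539 ± 321, with the highest value, 1078, in control 3. With the stricter gate Rgs5 cells stood at 4316 ± 1891 (2260 to 7043), so the order of Schwann and Rgs5 cells is not resolved. The ranges of the endothelium and smooth muscle overlapped, so their order is not resolved either. Lineages differed in the kind of collagen. Basement membrane collagens were 79.4% ± 3.03 of the collagen UMIs in endothelium, 62.2% ± 6.45 in smooth muscle and 8.36% ± 1.66 in tenocytes. Fibrillar collagens were 67.6% ± 6.08 in tenocytes. FACIT collagens reached 23.5% ± 4.98 in Schwann cells and at most 12.3% on average in the other gates.

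**Figure D2:**
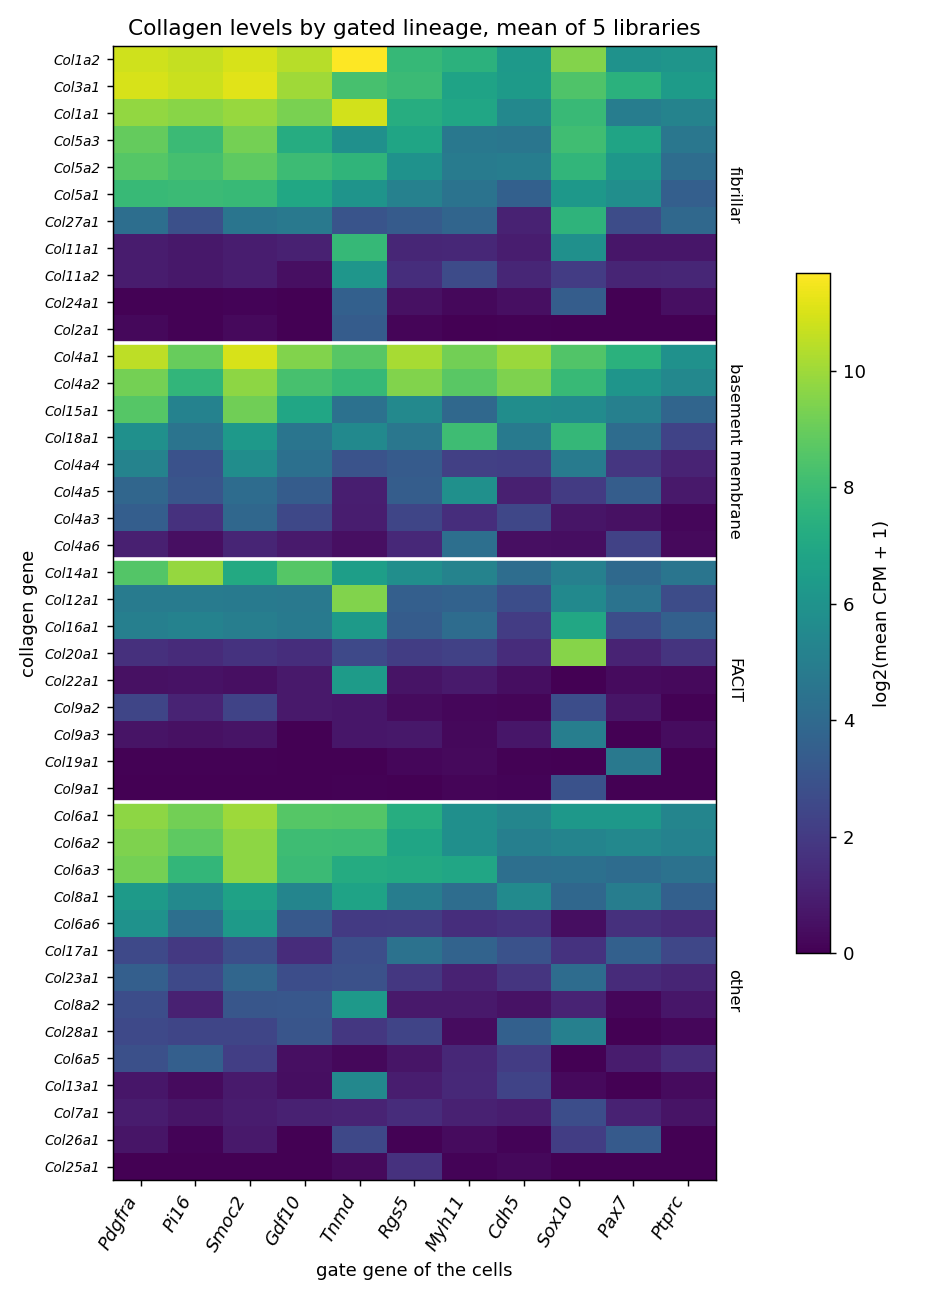
Mean level of each of the 42 collagens (rows, ordered within class) in cells gated by each gene (columns), as log2(mean CPM + 1) over 5 libraries. Col1a2, Col3a1, Col4a1 and the type VI chains were seen in every column, also in the Ptprc reference (67.6 CPM for Col1a2, 85.5 for Col3a1). The part of background in this spread was not tested. Col20a1, Col19a1 and Col22a1 were high in a single column, and Col17a1 rests on control 3.

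Most collagens had a clear leading lineage. Of the 42 members, 14 were highest on average in the Pdgfra lineage, 11 in tenocytes, 9 in Schwann cells, 3 each in Rgs5 and smooth muscle cells, 2 in satellite cells and none in endothelium. For 24 of the 42 (57.1%), all 5 libraries of the leading lineage lay above every library of the next, against 16.8% of the 20116 genes with at least 50 UMIs. In that set were 8 led by the Pdgfra lineage, 7 by tenocytes, 5 by Schwann cells, 2 by smooth muscle and 1 each by Rgs5 and satellite cells. Of all genes led by a lineage, 19.3% stood apart in this way for the Pdgfra lineage, 14.4% for tenocytes and 15.4% for Schwann cells. The share was 30.1% for smooth muscle, 6.89% for Rgs5 and 13.0% for satellite cells. These counts are descriptions. The lead was chosen from the same values, and collagens are abundant transcripts.

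The most abundant fibrillar collagens, types I and III, were led by tenocytes and the Pdgfra lineage. Col3a1, the sole chain of type III (chromosome 1, 45311538 to 45349706, GRCm38), had 2400 and 1960 CPM in the frail Pdgfra cells and 1948, 1158 and 2771 CPM in the control ones. In tenocytes the ratio of Col3a1 to Col1a1 was 0.189 ± 0.112, against 2.33 ± 0.108 in the Pdgfra lineage. Col1a2, a chain of type I (chromosome 6, 4504814 to 4541544), had 2552 and 3230 CPM in frail tenocytes and 2460, 2111 and 6141 CPM in control ones. Its partner Col1a1 (chromosome 11, 94936224 to 94953042) had 1522 and 1716, then 1408, 1049 and 3769 CPM there. Control 3 was the highest library for both type I chains, and it also had the most tenocytes (739, against 130 to 464). In the Pdgfra lineage Col1a2 had 2068 and 1806, then 1787, 1264 and 2376 CPM. The ratio of Col1a1 to Col1a2 was 0.464 ± 0.0430 there, 0.562 ± 0.0479 in tenocytes and 0.341 ± 0.0814 in Schwann cells. In endothelium, Col1a2 (mean 75.9 CPM) and Col3a1 (81.5 CPM) were near the immune reference (67.6 and 85.5 CPM), so they are read as background there.

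Type XI chains, which help to nucleate collagen fibrils, were led by tenocytes. Col11a1 (chromosome 3, 114030540 to 114220718) had 264 and 227 CPM in frail and 190, 123 and 335 CPM in control tenocytes. Schwann cells were next at a mean of 58.2 CPM. Col11a2 averaged 68.8 CPM in tenocytes and Col2a1, the main cartilage collagen, 9.56 CPM. Col24a1 was shared by tenocytes (10.9 ± 3.67 CPM) and Schwann cells (10.0 ± 3.33), whose order is not resolved. Col27a1, a fibrillar chain known from cartilage, led in Schwann cells with 187 and 222, then 119, 177 and 260 CPM, against a mean of 17.7 in the Pdgfra lineage.

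The promoters below show letters just upstream of members with different leading lineages, from RefSeq on GRCm38.p6, where 33 of the 42 members were found. Capitals mark TATAAA (the TATA box), CCAAT or GGGCGG (a GC box) on either strand. The CArG box, the element bound by serum response factor, was searched too and matched in none of the 36 windows of 250 bases that the members have. In those windows TATAAA occurred in 4, CCAAT in 12 and GGGCGG in 21, that is 58.3%. Over all 32851 promoter windows of that length the shares were 12.4%, 33.8%, 32.7% and, for the CArG box, 1.47%. Some genes have more than 1 window, and matches are descriptions of letters only. The Col4a5 stretch is 216 bases long, because the 34 bases next to its start lie in an annotated exon and are not printed. They hold a GGGCGG that is in the count.
Col3a1 (led by Pdgfra cells, chr1:45311288-45311537, plus strand): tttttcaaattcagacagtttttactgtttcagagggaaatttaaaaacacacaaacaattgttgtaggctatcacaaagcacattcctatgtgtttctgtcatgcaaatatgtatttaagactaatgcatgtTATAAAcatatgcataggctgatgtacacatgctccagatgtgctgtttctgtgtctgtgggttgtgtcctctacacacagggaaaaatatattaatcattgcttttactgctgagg
Col15a1 (led by Pdgfra cells and the Smoc2 subset within them, chr4:47207762-47208011, plus strand): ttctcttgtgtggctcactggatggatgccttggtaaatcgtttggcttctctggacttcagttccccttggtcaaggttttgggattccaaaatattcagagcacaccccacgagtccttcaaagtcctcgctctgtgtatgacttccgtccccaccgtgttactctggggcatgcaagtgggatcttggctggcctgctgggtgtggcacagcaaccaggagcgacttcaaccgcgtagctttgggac
Col11a1 (led by tenocytes, chr3:114030290-114030539, plus strand): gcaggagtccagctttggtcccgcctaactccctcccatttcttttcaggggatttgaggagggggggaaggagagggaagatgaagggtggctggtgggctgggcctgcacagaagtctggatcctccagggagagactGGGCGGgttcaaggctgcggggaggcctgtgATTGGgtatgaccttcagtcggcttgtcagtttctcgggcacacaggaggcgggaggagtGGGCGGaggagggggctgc
Col4a6 (led by smooth muscle, chrX:141474077-141474326, minus strand): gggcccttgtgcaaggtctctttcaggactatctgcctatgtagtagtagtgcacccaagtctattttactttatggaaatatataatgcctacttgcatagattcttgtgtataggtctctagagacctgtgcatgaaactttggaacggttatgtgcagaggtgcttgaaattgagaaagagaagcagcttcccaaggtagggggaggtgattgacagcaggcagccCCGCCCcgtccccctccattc
Col4a5 (led by smooth muscle, chrX:141475169-141475384, plus strand): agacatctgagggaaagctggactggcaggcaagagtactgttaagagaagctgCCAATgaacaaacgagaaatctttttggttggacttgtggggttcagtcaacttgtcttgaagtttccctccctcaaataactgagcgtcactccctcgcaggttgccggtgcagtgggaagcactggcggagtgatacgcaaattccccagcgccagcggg
Col3a1 held 1 TATAAA, Col11a1 held 2 GGGCGG and 1 CCAAT, and Col15a1 held none of the motifs.

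Basement membrane collagens were spread over several lineages. Col4a1 and Col4a2 encode the chains of the common type IV network and lie head to head on chromosome 8. Their RefSeq starts overlap by 22 bases, shown because both genes begin inside it.
Col4a2 start to Col4a1 start (chr8:11312805-11312826, plus strand): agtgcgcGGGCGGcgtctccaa
Col4a2 stood at 683 and 847, then 644, 628 and 803 CPM in Rgs5 cells. In endothelium it stood at 554 and 672, then 692, 641 and 876 CPM. The ranges overlapped, so neither lineage leads. In the stricter Rgs5 gate Col4a2 had 759 and 1069, then 541, 474 and 939 CPM, which overlapped with endothelium too. Col4a1 was highest in the Pdgfra lineage (1477 ± 348 CPM), followed by Rgs5 cells (1130 ± 194, or 1248 ± 493 in the stricter gate) and endothelium (977 ± 141). In endothelium its values were 896 and 929, then 921, 910 and 1228 CPM, a narrow range. The paired chains were not used in 1 fixed proportion of transcripts. The Col4a1 to Col4a2 ratio was 2.27 to 2.52 in the Pdgfra lineage, above every library of endothelium (1.33 to 1.62) and of Rgs5 cells (1.46 to 1.67, or 1.53 to 1.82 in the stricter gate).

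The other type IV genes also lie head to head, in pairs. Col4a5 and Col4a6 start 1342 bases apart on chromosome X, and their promoters are printed above. Both led in smooth muscle, Col4a6 with 20.5 and 17.4, then 17.8, 17.5 and 17.3 CPM, and Col4a5 with 53.9 and 74.4, then 61.1, 56.2 and 44.4 CPM. The next lineages differed between the partners: satellite cells for Col4a6 (3.94 ± 3.50 CPM) and the Pdgfra lineage for Col4a5 (13.5 ± 6.47 CPM). Col18a1, whose fragment is endostatin (chromosome 10, 77052178 to 77166548), had 265 and 286, then 216, 213 and 331 CPM in smooth muscle. Schwann cells were close at 218 ± 41.6 CPM. Col18a1 overlaps Slc19a1 on the other strand, and whether counting used the strand is not given in the sources used here. Col15a1 (chromosome 4, 47208161 to 47313167) averaged 393 CPM in the Pdgfra lineage, and endothelium was next at 52.7 CPM.

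Several FACIT collagens were high in a single lineage. Col20a1, a Schwann cell collagen here (chromosome 2, 180986535 to 181018363), had 566 and 966, then 491, 556 and 1249 CPM in Sox10 cells and a mean of 4.92 CPM in the next lineage, tenocytes. The gene BX649560.1 overlaps it on the same strand. Col20a1 and Col1a2 (547 and 797, then 843, 656 and 764 CPM) were the highest collagens of Schwann cells. Col12a1, a FACIT of tendon and muscle fascia, had 833 and 828, then 666, 585 and 675 CPM in tenocytes, while Schwann cells were next at 46.5 CPM. Col22a1, a collagen of the myotendinous junction, had 31.4 and 89.0, then 66.0, 131 and 105 CPM in tenocytes and at most 3.56 CPM in any library of the next lineage. Col19a1 led in satellite cells, at 27.3 and 23.3, then 23.1, 25.6 and 28.1 CPM, a total of 107 UMIs. The other 6 lineages averaged at most 0.246 CPM each. Col16a1 was led by Schwann cells at 129 ± 29.3 CPM. The type IX chains Col9a3 (31.0 ± 7.99 CPM) and Col9a1 (6.77 ± 4.45 CPM, 21 UMIs) led there too, and Col9a2 (5.85 ± 6.64 CPM) did not separate from the Pdgfra lineage (4.45 ± 2.12).

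**Figure D3:**
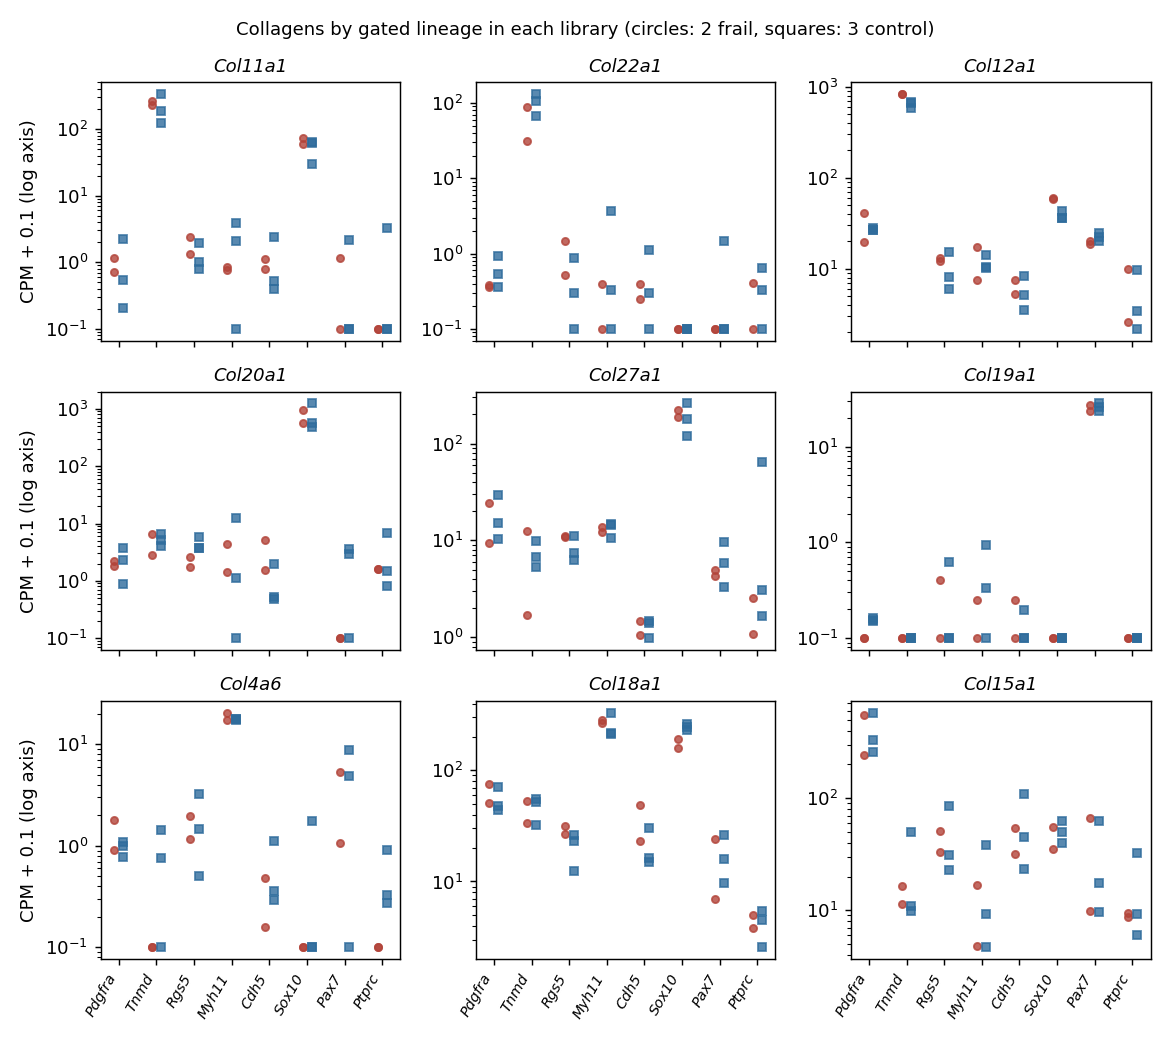
Levels of 9 collagens (panels) in each gated lineage (horizontal axis) as CPM + 0.1 on a log axis, with 1 circle per frail and 1 square per control library. Col20a1 in Sox10 cells and Col19a1 in Pax7 cells lay above every library of the other lineages, and Col18a1 was shared by Myh11 and Sox10 cells.

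Among the other collagens, the type VI chains led in the Pdgfra lineage, with means of 845 CPM for Col6a1, 698 for Col6a2 and 615 for Col6a3. Their ratio was not constant. Col6a3 to Col6a1 was 0.252 to 0.430 in the Pi16 subset, 0.729 to 0.908 in the Smoc2 subset and 1.52 to 4.02 in smooth muscle, ranges that do not overlap. In smooth muscle Col6a1 rests on 1156 UMIs and was not far above the immune reference (mean 39.5 CPM). The part of background in the smooth muscle ratio was not tested. Col6a6 averaged 61.5 CPM in the Pdgfra lineage and 3.09 CPM in the next. Col8a2 (77.9 ± 15.1 CPM) and Col13a1, a transmembrane collagen (43.4 ± 14.3 CPM), led in tenocytes. Col28a1, known from peripheral nerve, had 40.7 and 45.6, then 31.0, 28.3 and 21.6 CPM in Schwann cells. Col26a1 (40 UMIs, 8.93 ± 4.02 CPM) was highest in satellite cells. Col25a1 (79 UMIs, 2.21 ± 1.28 CPM) was highest in Rgs5 cells, with 5.10 ± 5.24 CPM in the stricter gate.

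Some members rest on a single library. Col17a1, the hemidesmosome collagen of epithelia, had 101 CPM over all cells of control 3 and 0.677 to 1.36 CPM in the other libraries. Col7a1, the anchoring fibril collagen, had 6.75 CPM in control 3 and at most 1.00 elsewhere. These are the epithelial collagens, and control 3 is the library with keratin transcripts, whose part in these levels was not tested. Col6a5 had 16.8 CPM in control 2 and 0.566 to 2.09 elsewhere.

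The Pi16 and Smoc2 subsets of the Pdgfra lineage differed in most of the collagens they expressed. Lineages were compared over 10 sums, 2 per library, with the library as a block (edgeR quasi-likelihood test, Benjamini-Hochberg adjustment over all genes). Of 29 members tested, 3 were called higher and 19 lower in Pi16 cells at an adjusted p under 0.05. Of all 13547 genes, 23.3% were called higher and 23.4% lower. The members' median log2 difference was -1.21, against -0.01 over all genes. Col15a1 stood at 42.3 and 33.4, then 24.3, 14.6 and 61.7 CPM in Pi16 cells and at 747 and 349, then 589, 421 and 780 CPM in Smoc2 cells (log2 -3.98, SE 0.27, edgeR adjusted p = 0.00032). The groups lay far apart in every library. Col14a1, a FACIT found on mature fibrils, went the other way, with 1351 and 514, then 1001, 756 and 964 CPM in Pi16 cells and 232 and 51.7, then 127, 105 and 161 CPM in Smoc2 cells. Its log2 difference was 2.95 (SE 0.11, edgeR adjusted p = 8.35e-08). Col4a4 (-2.79, SE 0.10), Col4a3 (-2.58, SE 0.19) and Col8a2 (-2.67, SE 0.39) were lower in Pi16 cells, with edgeR adjusted p of at most 0.000483. All 7 basement membrane members tested were called lower, and 2 of 5 FACIT members higher. As a share of collagen UMIs, basement membrane collagens were 9.81% ± 2.55 in Pi16 and 27.4% ± 3.40 in Smoc2 cells, and FACIT collagens 12.3% ± 3.12 and 1.54% ± 0.393.

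Gdf10 cells had less of most collagens than Smoc2 cells. Of 29 members tested, 1 was called higher and 18 lower, against 6.02% higher and 6.41% lower of all 12566 genes, with a median of -1.17 over members and -0.04 over all genes. Col6a6 (log2 -3.24, SE 0.24, 19 UMIs in Gdf10 cells), Col15a1 (-2.22, SE 0.10), Col5a3, a minor type V chain (-1.95, SE 0.10), and Col18a1 (-1.75, SE 0.19) were lower, with edgeR adjusted p of at most 8.24e-18. Col9a2 was also called lower, but it rests on 1 UMI in Gdf10 cells against 270 in Smoc2 cells and was lost with DESeq2, with RLE factors, without the low-count filter, without the block, and without frail 1 or any 1 control. Col14a1 was the member called higher. In this fit the spread was taken almost wholly from all genes together. Its p-values therefore say little about each gene's own spread between mice. Between Pi16 and Gdf10 cells, 7 members were higher and 6 lower in Pi16 cells of 23 tested (10.5% and 10.3% of 10519 genes). The largest differences were Col27a1 (-2.07, SE 0.31), Col15a1 (-1.82, SE 0.20), Col4a4 (-1.44, SE 0.34), Col14a1 (1.24, SE 0.15) and Col6a6 (1.11, SE 0.33), with edgeR adjusted p of at most 0.0135. Col15a1 turned to 0.94 when a cell could carry several gate genes.

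Tenocytes had more type XI, XXII, XXIV and XIII and less basement membrane collagen than the Pdgfra lineage. Of 36 members tested, 14 were called higher and 19 lower in tenocytes, against 18.5% and 20% of all 14294 genes. Col11a1 (log2 8.07, SE 0.32), Col22a1 (7.60, SE 0.17), Col24a1 (7.13, SE 0.41), Col11a2 (6.39, SE 0.18) and Col13a1 (6.10, SE 0.18) had the largest differences, with edgeR adjusted p of at most 8.75e-06. Col24a1 rests on 8 UMIs in the Pdgfra lineage. Of the basement membrane members, 0 were called higher and 6 of 7 lower. Among genes that act on collagen, of 10 fibril-binding proteins, 8 were called higher in tenocytes, with Kera (8.08) and Fmod (8.04) highest and Lum (-2.55) lowest. Kera and Fmod are small proteoglycans listed here as tenocyte markers too. Adamts3, which removes N-propeptides (3.11), and P3h2, a prolyl 3-hydroxylase (5.67), were the highest of their lists, in which 4 of 12 processing genes were called higher and 6 lower, and 7 of 19 folding genes higher and 5 lower. These 5 had edgeR adjusted p of at most 5.69e-06.

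The vascular lineages separated by type IV chain. Of 26 members tested, 6 were called higher and 10 lower in smooth muscle than in Rgs5 cells, against 29.7% and 33.2% of all 12835 genes. Col4a6 (log2 3.83, SE 0.31), Col18a1 (3.72, SE 0.14) and Col4a5 (2.81, SE 0.14) were higher in smooth muscle, and Col28a1 (-3.53, SE 0.56) and Col5a3 (-1.93, SE 0.18) lower, with edgeR adjusted p of at most 0.000372. With the stricter Rgs5 gate the differences were 2.55 for Col4a6, 2.99 for Col18a1, 1.74 for Col4a5 and -2.67 for Col5a3. Col28a1 was not tested there. It had 0.888 and 0, then 1.72, 0 and 0 CPM in the stricter gate, a mean of 0.523 against 4.33 in the wider gate, 0.315 in smooth muscle and 10.9 in endothelium, so its difference was not seen with that gate. With it 3 members were called higher and 10 lower (24% and 25.4% of 10559 genes). Col4a1 stood at 576 and 734, then 500, 538 and 619 CPM in smooth muscle, below every library of the Rgs5 gate (919 to 1372 CPM). Rgs5 cells had 15 members called higher and 4 lower than endothelium of 27 tested, against 25% and 26.3% of all 13805 genes. Col4a5 (3.20, SE 0.28), Col27a1 (2.89, SE 0.19), Col6a3 (2.87, SE 0.09) and Col5a3 (2.13, SE 0.23) were higher and Col13a1 (-2.31, SE 0.31) lower, with edgeR adjusted p of at most 0.000556. Endothelial Col6a3 was near the immune reference (mean 20.2 CPM), so its fold, also with the stricter gate, describes only the gap to background. The stricter gate gave 15 higher and 2 lower (27.2% and 28.5% of 12303 genes), with Col4a5 at 4.15 and Col6a3 at 3.62. Cells of that gate had 3749 to 6326 CPM of the summed Pdgfra-lineage markers, and their part in the fibrillar and type VI differences was not tested.

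Schwann cells had more FACIT and less type VI collagen than the Pdgfra lineage, and satellite cells had less of most collagens. In Schwann cells 11 of 35 members were called higher and 21 lower, against 18.6% and 25.5% of all 14048 genes, and 5 of 7 FACIT members were among the higher ones. Col20a1 had the largest rise that rests on many UMIs (log2 8.22, SE 0.19, edgeR adjusted p = 3.3e-18). Col24a1 (30 against 8 UMIs) differed by 6.71 (SE 0.63). Col9a1 had 21 UMIs in Schwann cells and 2 in the Pdgfra lineage, and Col6a6 had 1 and 6898. Col6a5 had no UMI in Schwann cells and 625 in the Pdgfra lineage, so it was at least 5.56-fold lower, with 3 counts over all libraries as the floor. In satellite cells 3 of 31 members were called higher and 25 lower, against 18.8% and 24.9% of all 13765 genes. Col19a1 was higher (107 against 4 UMIs, log2 9.18, SE 0.52), while Col6a3 (-5.30, SE 0.17), Col1a2 (-4.91, SE 0.21) and Col1a1 (-4.78, SE 0.21) were lower, with edgeR adjusted p of at most 2.04e-10. These 3 stood in satellite cells at means of 16.3, 60.6 and 30.1 CPM, near the immune reference (20.2, 67.6 and 36.2 CPM), so they are read as background there and the folds describe only the gap to background. Col28a1 had no UMI in satellite cells and was at least 6.64-fold lower. The collagens with the highest level in satellite cells were Col4a1 (220 and 137, then 133, 160 and 235 CPM) and Col3a1 (230 and 89.4, then 179, 92.8 and 279 CPM).

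No collagen was called different between frail and control mice by the edgeR test. Over all cells 23 members had a higher and 19 a lower fitted level in the frail mice, with a median log2 difference of 0.06 over members and 0.00 over all genes. This balance turned on single libraries. Without control 3 it was 38 higher and 4 lower (median 0.53), without frail 2 it was 30 and 12 (0.26), without frail 1 it was 17 and 25 (-0.22), without control 1 it was 20 and 22 (-0.09) and without control 2 it was 18 and 24 (-0.12). No member was called in any of these 5 fits, where edgeR called 0% of all genes. Without control 3 both frail libraries lay above both controls for 25 members, against 20.5% of all genes. At an unadjusted p under 0.05 there were 3 members, against 5.61% of all genes. Of all 19821 genes, edgeR called 0, that is 0%, with 1112 at an unadjusted p under 0.05, and DESeq2 called 0 members and 1.46% of all genes. Both frail libraries lay above every control for 6 members and below for 0, against 9.7% and 10.7% of all genes. In sums over all cells, fewer cells of a type and less RNA per cell cannot be told apart. Over the 11 fits in all cells, 7 lineages and 3 subsets, 317 member tests gave 0 edgeR calls, 23 at an unadjusted p under 0.05 (7.26%, against 4.93% over all genes).

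By class, fibrillar collagens made up 0.299% and 0.267% of UMIs in the frail libraries and 0.244%, 0.158% and 0.471% in the controls, and the groups overlapped (exact permutation p = 1, two-sided, where 0.1 is the smallest possible). Basement membrane collagens made up 0.185% and 0.197%, then 0.140%, 0.135% and 0.199% (exact permutation p = 0.6, adjusted 1 over 5 shares). FACIT and other collagens gave exact permutation p of 0.6 and 1. Without control 3 the difference in all collagens was 0.152 percentage points in place of 0.00616. Both frail libraries then lay above both controls for all, fibrillar, basement membrane and other collagens, where the exact permutation p of 0.333 is the smallest that 2 against 2 libraries allow. The 3 highest fibrillar members each had control 3 above and control 2 below both frail libraries. Col1a2 had 967 and 864, then 809, 559 and 1614 CPM over all cells, Col3a1 947 and 846, then 835, 473 and 1366, and Col1a1 519 and 406, then 386, 243 and 874. The type VI chains also had their highest level in control 3, with Col6a1 at 393 and 324, then 312, 306 and 570 CPM. Col6a2 had 323 and 220, then 245, 223 and 544, and Col6a3 294 and 201, then 216, 178 and 444. The groups overlapped for all 6 of these genes. Among basement membrane members, Col4a1 had 999.8 and 1171, then 759, 769 and 1071 CPM, Col4a2 512 and 599, then 445, 423 and 542, and Col15a1 214 and 106, then 129, 92.6 and 279. The FACIT members Col14a1 (246 and 82.0, then 259, 152 and 227 CPM), Col12a1 (53.3 and 55.8, then 26.6, 32.4 and 68.3) and Col16a1 (19.9 and 21.3, then 17.7, 16.9 and 36.6) overlapped between the groups.

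**Figure D4:**
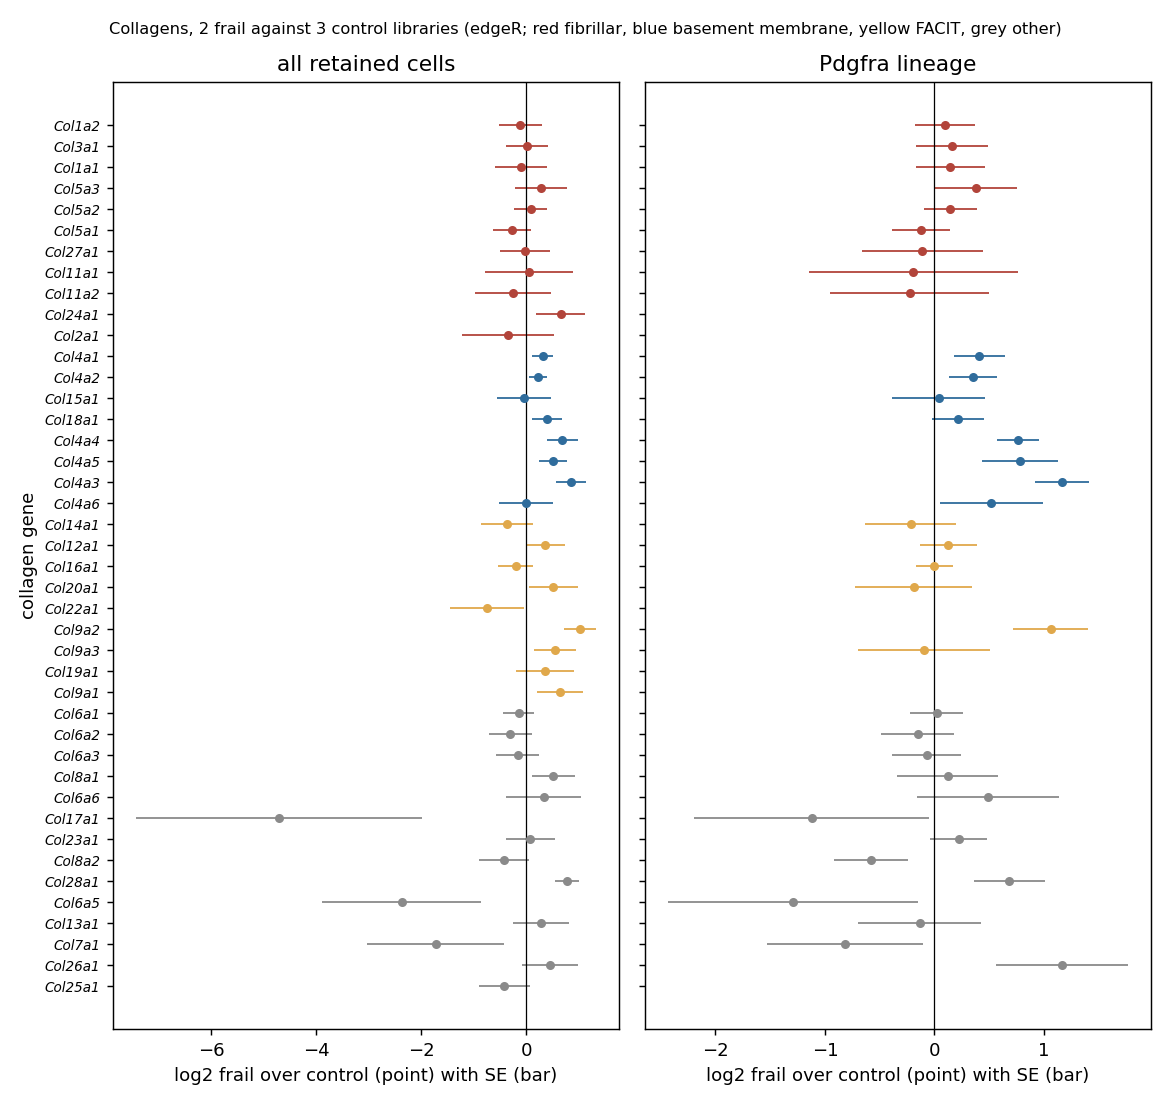
Log2 frail over control (horizontal axis) with its standard error for each collagen (rows, coloured by class) in all cells and in the Pdgfra lineage, from edgeR over 2 frail and 3 control libraries. The basement membrane members sat at or above 0 in the Pdgfra lineage, with Col4a3 at 1.17, and no member passed the adjusted threshold.

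The smallest p-values fell on minor chains. Over all cells Col28a1 had 7.59 and 7.31, then 3.95, 4.93 and 3.97 CPM (log2 0.78, SE 0.23, edgeR adjusted p = 0.657). Col9a2 had 2.73 and 2.28, then 1.02, 1.41 and 1.25 CPM (log2 1.01, SE 0.31, edgeR adjusted p = 0.670). Col4a3 had 6.52 and 8.31, then 3.61, 3.10 and 5.50 CPM (log2 0.85, SE 0.28, edgeR adjusted p = 0.741). The frail libraries were above the controls for each of the 3. Col28a1 led in Schwann cells, whose summed markers over all cells were also higher in both frail libraries (462 and 396, then 167, 286 and 205 CPM). Their part in its level was not tested.

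In the Pdgfra lineage all 8 basement membrane members had a higher fitted level in the frail mice, with a median of 0.47, and 0 of them were called (edgeR called 0.0128% of 15648 genes there). For 4 of the 8, both frail libraries lay above every control, against 9.83% of all genes. In plain CPM the class summed to 3005 and 2983, then 1974, 1942 and 3120, so the groups overlapped. Pi16 cells had a mean of 777 CPM of this class and Smoc2 cells 3561. The summed Pi16 subset markers stood at 1414 and 1670, then 2692, 2240 and 1593 CPM in the lineage. The part of the subset mix in the result was not tested. Col4a3 had 13.9 and 17.0, then 6.71, 4.60 and 9.08 CPM (log2 1.17, SE 0.25, edgeR adjusted p = 0.287). DESeq2 gave it an adjusted p of 0.0189, and called 0.735% of all genes. Without the low-count filter edgeR called Col4a3, Col4a4 and Col4a5 higher, among 1.07% of 28378 genes. Col4a4 had 44.5 and 53.3, then 22.3, 26.2 and 37.1 CPM (log2 0.76, SE 0.20, edgeR adjusted p = 0.424). Both chains belong to the type IV network known from kidney, and their genes start 71 bases apart on chromosome 1, on opposite strands. The bases between the starts are shown because both genes begin at their ends.
Col4a3 start to Col4a4 start (chr1:82586850-82586920, minus strand): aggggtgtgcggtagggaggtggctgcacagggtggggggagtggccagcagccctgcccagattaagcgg
Col4a1 had 1618 and 1865, then 1081, 1139 and 1683 CPM, and by these values control 3 lay above frail 1. The fit, which scales libraries by TMM factors, placed it below. Col4a2 had 676 and 741, then 476, 457 and 723 CPM, again with control 3 above frail 1 by these values. Col9a2, the third by p, had 7.51 and 5.48, then 2.78, 4.21 and 2.27 CPM (log2 1.06, SE 0.34, edgeR adjusted p = 0.723).

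Col14a1 in Schwann cells and Col8a1 in endothelium are given as the members with the smallest p there. They and the further members named were chosen after their values were seen. In Schwann cells, where edgeR called 0.0851% of 8227 genes, Col14a1 was low in both frail mice. It had 9.51 and 8.40, then 77.5, 24.5 and 44.8 CPM (log2 -2.26, SE 0.49, edgeR adjusted p = 0.205), from 69 UMIs. Without control 2 its edgeR adjusted p was 0.0329. Without the low-count filter it was called too, among 0.354% of 18633 genes. Of 24 members tested in Schwann cells, 7 had an unadjusted p under 0.05, against 4.21% of all genes, and 0 were called. For 5, Col14a1, Col6a2, Col1a1, Col5a1 and Col18a1, both frail libraries lay below every control, against 9.66% of all genes. Col6a2 had 17.7 and 16.8, then 62.0, 30.2 and 61.3 CPM (log2 -1.51, SE 0.40, edgeR adjusted p = 0.491). Col28a1 and Col12a1 lay above the controls instead, Col12a1 with 59.8 and 57.6, then 36.2, 35.8 and 43.1 CPM. Col14a1 is high in the Pdgfra lineage, and summed Pdgfra-lineage markers in the Schwann cells stood at 1514 and 1700, then 4467, 1512 and 2417 CPM. They were highest in control 1, as Col14a1 was, and their part in the result was not tested. Summed Schwann cell markers in that gate stood at 14800.5 and 15562, then 17556, 16530 and 6339 CPM, lowest in control 3. Their part was not tested either. In endothelium Col8a1, a short-chain collagen of vessel walls, had 56.2 and 78.9, then 43.3, 18.6 and 39.5 CPM (log2 1.00, SE 0.31, edgeR adjusted p = 0.688). The groups did not overlap, as for 8.32% of the 14585 genes in that direction, and edgeR called 0.199% of them. Without the low-count filter Col8a1, Col18a1 and Col20a1 were called higher, among 1.17% of 26397 genes.

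The other lineages also had 0 members called by edgeR, against 0.00776% of all genes in Pi16 cells, 0.0134% in Smoc2 cells, 0.22% in smooth muscle, 0.0468% in satellite cells and 0% in Gdf10, Tnmd and Rgs5 cells. In Rgs5 cells 21 of 30 members had a higher fitted level in the frail mice (median log2 0.22), or 18 of 20 in the stricter gate (median 0.52, 0 called), and in satellite cells 2 of 19 did (median -0.23). Without the low-count filter edgeR called Col4a3 and Col4a4 higher in Smoc2 cells (0.687% of all genes), Col6a5 lower in smooth muscle (0.857%) and Col17a1 lower in satellite cells (0.496%). A fit on the libraries numbered 1 and 2, with the number as a block, leaves out control 3. It called Col4a4, Col5a3, Col11a1 and Col20a1 higher in all cells (1.71% of all genes), Col4a3 and Col4a4 in the Pdgfra lineage (0.978%), Col9a2 and Col15a1 in Pi16 cells (0.83%) and Col5a3 and Col8a1 in smooth muscle (2.67%). Col20a1 was led by Schwann cells, whose summed markers over all cells were higher in both frail libraries. Their part in the all-cell call was not tested.

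Whether the frailty difference of a collagen was unequal between the lineages of a pair was tested with an interaction term. By edgeR, Col1a1 and Col3a1 had a lower frailty effect in Gdf10 than in Smoc2 cells, with edgeR adjusted p of 0.00109 and 0.0154, where 0.0796% of all genes were called in that direction. Col16a1 had a lower effect in satellite cells than in the Pdgfra lineage (edgeR adjusted p = 0.0194), where 0.203% were called. Both fits took the spread almost wholly from all genes together.

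Genes that fold, process, bind or sense collagen were described from 4 lists. In the Pdgfra lineage 0 of 50 were called between frail and control mice. Of 19 folding and modification genes 5 were higher and 14 lower, with a median of -0.07. P4ha3, a prolyl 4-hydroxylase subunit, was at -1.40 and Serpinh1, the collagen chaperone, at -0.61. Of 13 processing and cross-linking genes 3 were higher and 10 lower, with Lox, a lysyl oxidase, at 0.44 and Loxl4 at -0.68. The 10 fibril-binding genes had a median of -0.05 and the 8 receptors of -0.02. Between the subsets, 3 of the 19 folding genes were called higher and 11 lower in Pi16 than in Smoc2 cells (median -0.27), with P4ha3 at 2.66 and Plod1, a lysyl hydroxylase, at -1.33. Of 12 processing genes 7 were called higher and 4 lower (median 0.46), with Pcolce2, a procollagen processing enhancer, at 2.13 and Adamts3 at -2.26. Of 10 fibril-binding genes 2 were called higher and 4 lower, with Lum, a fibril-binding proteoglycan, at -2.07, and of 8 receptors 3 higher and 4 lower. Of all genes, 23.3% were called higher and 23.4% lower in that pair.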

How the data were processed

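Tibialis anterior muscle of 5 mice was measured as 1 droplet library each, 2 frail and 3 control per the titles. The authors deposited raw UMI counts for each gene in each barcode. The submitters' processing notes list Cell Ranger 7.0.0, Seurat 4.1.2 and the build GRCm38. For the annotation, the barcode filter and the strand setting, nothing is given in the sources used here. The libraries held 72043464 and 70155746 UMIs (frail) and 68170531, 71140868 and 90942121 UMIs (control), in 9791 to 13303 barcodes of at least 500 UMIs.

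Cells needed 200 or more genes and no more than 10% mitochondrial UMIs. The highest Scrublet scores (scanpy 1.11.5), 0.4% of the cells for every 1000 deposited barcodes of the library, were then removed as doublets. Of the barcodes, 78.3% remained in frail 1, which lost most to the mitochondrial limit, and 84.9% to 87.8% in the others. A cell entered a gate with at least 2 UMIs of the gate gene and at least 2 times the UMIs of every other gate gene, except that between Rgs5 and Myh11 the larger count decided. Subsets of the Pdgfra lineage needed at least 2 UMIs of Pi16, Smoc2 or Gdf10 and more than of the other two. UMIs were summed per library and gate, and units with a library under 10 cells were not tested. Sums were tested with edgeR 4.0.16 (TMM, filterByExpr, robust quasi-likelihood F test, Benjamini-Hochberg over all genes, 0.05), frail against control with no block and lineage pairs with the library as a block. DESeq2 1.42.0 served as an alternative. Levels are plain CPM with no TMM factor, while log2 differences and counts of libraries that do not overlap come from the fit. The fits were tested on simulated data. Class shares were compared by an exact two-sided permutation test over 10 splits.

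The members and gene lists were chosen with earlier results of these data known. Values per library are given for the 3 highest members of each class, the 2 highest of each lineage, up to 5 members with the largest called difference per lineage pair, and the 3 smallest p-values in all cells and in the Pdgfra lineage. Members given for frailty in Schwann cells and endothelium were chosen after their values were seen. The stricter Rgs5 gate (at least 10 Rgs5 UMIs and at most 2 over 6 endothelial markers) and the test of frailty by lineage were added after seeing the data. Gene positions are from GENCODE vM21 on GRCm38. Software was R 4.3.3, Python 3.11.15 and scipy 1.17.1.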

Additional observations from a re-analysis of the deposited data

Results flagged for a closer look

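The effect of frailty on 3 members differed between the lineages of a pair by an interaction term added after the frailty fits were seen (edgeR, library as a block, adjusted over all genes). For Col1a1 the log2 effect was lower by 0.78 in Gdf10 than in Smoc2 cells (-0.78, SE 0.15, edgeR adjusted p = 0.00109). In single fits it was -0.54 in Gdf10 and 0.15 in Smoc2 cells, neither of them called. For Col3a1 the difference was -0.61 (SE 0.14, edgeR adjusted p = 0.0154), from -0.39 in Gdf10 and 0.15 in Smoc2 cells. Gdf10 cells numbered 35 to 73 per library. For Col16a1 the effect was lower in satellite cells than in the Pdgfra lineage (-3.37, SE 0.83, edgeR adjusted p = 0.0194). Its satellite cell level was 1.05 and 0.972, then 8.67, 3.20 and 15.1 CPM, from 28 UMIs. Most of the 28 UMIs came from control 3. The level of Col16a1 in the Pdgfra lineage was 30.6 and 33.5, then 30.7, 25.7 and 39.0 CPM. Of all genes, 0.0796% were called lower in the Gdf10 and Smoc2 pair and 0.203% in the satellite and Pdgfra pair. No other member was called among the 8 pairs. In both fits with a called member the spread was taken almost wholly from all genes together. These p-values therefore say little about each gene's own spread between mice.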

How the results depend on the processing

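Precision is limited by 2 frail against 3 control libraries and, for minor chains, by few UMIs. Frailty counts of called collagens, 0 in each main comparison, moved as follows. Without the low-count filter they were 3 in the Pdgfra lineage (Col4a3, Col4a4, Col4a5), 2 in Smoc2, 1 in Myh11, 3 in Cdh5, 1 in Sox10 and 1 in Pax7 cells. In these unfiltered fits the spread came almost wholly from all genes together, so the calls say little about each gene's own spread. DESeq2 called 1 in the Pdgfra lineage (Col4a3). Leaving out 1 library gave 0 to 1 in Tnmd cells (Col14a1 lower without frail 1, as 0.224% of all genes), 0 to 1 in Sox10 cells (Col14a1 lower without control 2, as 0.227%) and 0 to 4 in Pax7 cells. Of 19 members there, Col3a1, Col5a3, Col15a1 and Col17a1 were lower without frail 1 (0.811% of all genes) and Col17a1 without frail 2 (0.770%). The cause was not tested.

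Frail and control libraries share only the numbers 1 and 2. Their deviations from the group means correlated at -0.07 and 0.17 over 11211 genes. With 2 frail libraries these deviations mirror each other, so the check cannot decide whether the numbers pair the mice. A fit with the replicate number as a block, which leaves out control 3, called 4 collagens in all cells, 2 in the Pdgfra lineage, 2 in Pi16 and 2 in Myh11 cells. It reversed the all-cell log2 difference of Col1a2 (0.39), Col1a1 (0.53), Col15a1 (0.41), Col16a1 (0.20), Col6a1 (0.16), Col6a2 (0.14) and Col6a3 (0.25). With the numbers 1 and 2 paired, the difference in share was 0.0818 percentage points for fibrillar and 0.0172 for other collagens. Without the block, Pi16 against Gdf10 cells gave 8 calls, 3 higher and 5 lower (7.65% and 7.25% of all genes), in place of 7 and 6.

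Leave-one-out ranges of the share difference in percentage points were -0.0940 to 0.152 for all, -0.0748 to 0.0818 for fibrillar, -0.0113 to 0.00428 for FACIT and -0.0328 to 0.0172 for other collagens. The all-cell log2 difference ran from -0.39 to 0.38 for Col1a2, -0.28 to 0.41 for Col3a1, -0.43 to 0.52 for Col1a1, -0.70 to 0.50 for Col15a1, -1.44 to 0.24 for Col14a1, -0.39 to 0.20 for Col16a1, -0.34 to 0.17 for Col6a1, -0.66 to 0.17 for Col6a2 and -0.53 to 0.29 for Col6a3. With all deposited barcodes the all-collagen difference was -0.00835 percentage points and Col3a1 was at -0.046. Without the dominance rule Col15a1 was at 0.94 in Pi16 against Gdf10 cells.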

Other observations

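Basement membrane collagens had a higher fitted level in frail mice in 7 of 7 tested members in Pi16 cells (median log2 0.40), 7 of 8 in Smoc2 cells (0.38) and 4 of 5 in Gdf10 cells (0.38). The same held for 6 of 8 in Rgs5 cells of the wider gate (0.33) and 7 of 8 in smooth muscle (0.28). In endothelium 2 of 7 were higher (-0.26), in tenocytes 1 of 5 (-0.05), in Schwann cells 1 of 5 (-0.10) and in satellite cells 0 of 5 (-0.08). None of these members was called by edgeR, and whether the class differs between lineages was not tested. Cells that entered no gate held 10.95% to 19.5% of collagen UMIs, with 4544 ± 919 CPM (SD, n = 5 libraries), of which 50.6% ± 4.38 was fibrillar.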
